A study of Homo sapiens with 18 samples.

Results

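The transcripts described here come from 10 genes through which the ERK branch of MAP kinase signalling restrains or relays itself: the phosphatases DUSP1, DUSP4, DUSP5 and DUSP6, the inhibitors SPRY2, SPRY4 and SPRED1, the transcription factors ETV4 and ETV5, and PHLDA1. The genes were chosen by name, and every probe set annotated to them was taken, which gave 28 of the 54613 probe sets on the array and 10 of 19775 genes. Of the 28, 26 were tested; the other 2, both of DUSP1, lay at the floor of 32 intensity units on all 18 arrays. RNA came from the human melanoma lines SKMEL5, WM2664 and A375, cultured in RPMI with 10% FBS and exposed to A-485 or to its vehicle DMSO for 6 h or 24 h. A-485 blocks the acetyltransferase activity of the coactivators p300 and CBP. Its dose was labelled 3 mM, a unit that was not checked, and the labels give no genotype and do not say which line counts as sensitive or resistant. Every line had 2 DMSO arrays and 1 A-485 array at each time, 12 groups and 18 arrays in all. Nothing in the labels states that replicates were separate cultures, so a p-value here reflects variation among these arrays, possibly technical alone. Each A-485 group is 1 array, tested against the variation within the 6 DMSO pairs.

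In the ERK cascade, growth factor receptors activate RAS, and RAS switches on the kinases RAF, MEK and ERK in turn. These melanoma lines are known to carry activating mutations of BRAF, which keep the cascade on without a growth factor. Active ERK raises the transcription of its own brakes: dual-specificity phosphatases (DUSP) that strip the activating phosphates from MAP kinases, and Sprouty and SPRED proteins that act on RAS and RAF. It also raises that of ETV4 and ETV5, transcription factors of the ETS family that carry the signal to further genes. PHLDA1, a pleckstrin-homology-like protein, is commonly read together with them as a transcript that follows ERK output.

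Promoters are shown first for SPRY2 and PHLDA1, whose transcripts fell in every line at 6 h, and then for DUSP1 and DUSP6, whose direction differed between lines. Each is the 250 bases before the annotated start, from RefSeq on GRCh38.p14, written 5′ to 3′ on the gene's own strand, which is the minus strand for all 4. RefSeq windows were read for 6 of the 10 members, and not for DUSP4, DUSP5, ETV4 or ETV5. DUSP4 also fell in every line at 6 h, so the promoters shown do not cover all such members. Capitals mark matches, on either strand, to the CRE letters TGACGTC, the AP-1 letters TGAGTCA, the ETS letters CCGGAA, the E-box CACGTG, the TATA letters TATAAA or the CArG box. SPRY2 is at chr13:80341127-80341376, PHLDA1 at chr12:76031777-76032026, DUSP1 at chr5:172771196-172771445 and DUSP6 at chr12:89352502-89352751.
SPRY2: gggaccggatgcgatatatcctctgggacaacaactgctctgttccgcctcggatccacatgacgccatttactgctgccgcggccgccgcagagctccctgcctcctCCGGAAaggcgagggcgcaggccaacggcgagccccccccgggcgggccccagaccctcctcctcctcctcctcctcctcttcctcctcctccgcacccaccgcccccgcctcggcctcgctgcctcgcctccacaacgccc
PHLDA1: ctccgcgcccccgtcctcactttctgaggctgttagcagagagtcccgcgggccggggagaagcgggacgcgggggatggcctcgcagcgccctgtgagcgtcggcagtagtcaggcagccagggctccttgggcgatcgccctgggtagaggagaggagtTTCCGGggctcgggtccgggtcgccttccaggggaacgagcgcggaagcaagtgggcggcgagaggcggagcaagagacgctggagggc
DUSP1: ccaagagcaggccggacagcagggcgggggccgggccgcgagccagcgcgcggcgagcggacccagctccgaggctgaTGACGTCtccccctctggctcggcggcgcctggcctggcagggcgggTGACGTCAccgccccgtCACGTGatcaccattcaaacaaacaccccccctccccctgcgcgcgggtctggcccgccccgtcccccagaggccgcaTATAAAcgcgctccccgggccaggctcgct
DUSP6: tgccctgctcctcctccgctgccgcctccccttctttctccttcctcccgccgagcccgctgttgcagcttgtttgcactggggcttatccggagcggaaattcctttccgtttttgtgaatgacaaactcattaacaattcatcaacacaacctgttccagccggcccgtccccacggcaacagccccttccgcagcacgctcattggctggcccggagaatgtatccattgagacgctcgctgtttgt
SPRY2 held 1 ETS match, 142 to 137 bases before the start, and PHLDA1 held 1, 89 to 84 bases before it, in the reverse orientation. ETS letters occurred in 14.5% of 35116 promoter windows of the same length. DUSP1 held CRE letters at 172 to 166 bases and again at 125 to 118 bases before the start, where matches on the 2 strands overlap. It also held an E-box at 108 to 103 bases and TATA letters at 30 to 25 bases. Over all windows, CRE letters occurred in 3.12%, the E-box in 6.34% and TATA letters in 10.7%. The DUSP6 window and those of SPRY4, SPRED1 and the other 2 starts of SPRY2 held none of the 6 motifs. AP-1 letters, found in 4.2% of windows, and the CArG box, found in 1.16%, were in none of the members' windows that were read. These matches describe letters only and say nothing of binding.

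Intensities below are after quantile normalization between arrays, and a gene is given by its brightest probe set unless another is named. Replicate DMSO arrays correlated at 0.988 to 0.992 across probe sets, and the members' DMSO pairs lay within 0.39 of each other on the log2 scale. SKMEL5 and WM2664 showed all 8 measured melanocyte markers above the floor on every array. In A375 4 to 8 were, their sum was 1522 to 2138 under DMSO against 37940.2 to 52499 in the other lines, and MLANA, TYR and TYRP1 were above the floor on 1 array alone, DMSO 6 h replicate 1. With A-485 the sums were 636 to 812 in A375, 21383 to 24411 in WM2664 and 39837 to 43427 in SKMEL5, and the part of this in the results was not tested. Of 5 leukocyte markers 1 to 3 were above the floor, PTPRC and CD14 at it on every array, and the sums were 166 to 275. KRT5 and DSG3 of 5 keratinocyte markers and COL3A1 of 6 fibroblast markers were at the floor on every array; sums were 2289 to 4278 and 352 to 5758. The highest fibroblast sum was that of WM2664 with A-485 at 24 h, against 3024 to 3165 in its DMSO arrays. Transcripts of another line stood out on 3 DMSO arrays, at 2.67% (WM2664 6 h replicate 1), 1.66% (A375 6 h replicate 1) and 1.31% (WM2664 24 h replicate 2) of that line's level.

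Under DMSO, 7 of the 10 members were highest in WM2664 and lowest in A375. SPRY4 and ETV5 showed the widest gaps in that order, 7.80-fold and 4.97-fold between the end lines. DUSP1, DUSP5 and PHLDA1 had other orders. With limma and Benjamini-Hochberg adjustment at 0.05, 9 of 10 members were called between A375 and SKMEL5, 10 between A375 and WM2664 and 9 between SKMEL5 and WM2664; the backgrounds of 65.7%, 65.5% and 57.7% of all 30355 probe sets tested show how far the lines differ in general. In A375 against SKMEL5, 7 were lower and 2 higher (30.7% and 35% of probe sets), and against WM2664 7 were lower and 3 higher (30.1% and 35.5%). In SKMEL5 against WM2664 8 were lower and 1 higher (28.4% and 29.2%).

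SPRY4, an inhibitor of receptor signalling to RAS, ran from 1102 to 1418 in the 4 DMSO arrays of WM2664 (median 1197), from 254 to 394 in SKMEL5 (median 323) and from 135 to 174 in A375 (median 160.0). The 3 lines did not overlap. ETV5 ran from 1952 to 2385 in WM2664 (median 2099), 1094 to 1559 in SKMEL5 (median 1276) and 372 to 494 in A375 (median 431), again without overlap. ETV4 was much closer between lines, with 409 to 584 in WM2664, 363 to 513 in SKMEL5 and 315 to 445 in A375; these ranges overlap, and its neighbours in the order did not differ beyond the threshold (-0.16 ± 0.09 for SKMEL5 minus WM2664, adjusted p = 0.155, and -0.19 ± 0.09 for A375 minus SKMEL5, adjusted p = 0.0962, log2 ± SE).

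SPRY2, an inhibitor of receptor tyrosine kinase signalling, had 3211 to 3569 in WM2664, 2247 to 2331 in SKMEL5 and 1076 to 1281 in A375. DUSP4, a nuclear phosphatase of ERK and related kinases, had 3818 to 4139, 1846 to 2396 and 1911 to 2055 in the same order. SKMEL5 and A375 overlap here, and their difference of -0.13 ± 0.05 turned to 0.10 (adjusted p = 0.604) without scaling between arrays and lost its call without any 1 of the DMSO arrays except SKMEL5 24 h replicate 2. DUSP6, the cytoplasmic phosphatase specific to ERK, had 2092 to 2582 in WM2664, 1996 to 2210.4 in SKMEL5 and 1243 to 1607 in A375. Only A375 stood clear at the brightest DUSP6 probe set. There SKMEL5 minus WM2664 was -0.15 ± 0.05 (limma, adjusted p = 0.0265), and 0.05 without scaling. The call ended without WM2664 6 h replicate 1, SKMEL5 6 h replicate 2, SKMEL5 24 h replicate 1 or WM2664 24 h replicate 2. All 3 DUSP6 probe sets were called lower in SKMEL5 than in WM2664 (-0.49 to -0.15). SPRED1, which brings the RAS inhibitor neurofibromin to the membrane, had 1359.9 to 1455 in WM2664, 1188 to 1305 in SKMEL5 and 726 to 768 in A375, and its SKMEL5 minus WM2664 difference of -0.19 ± 0.05 came to 0.0038 without scaling.

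DUSP1, an immediate early phosphatase that also acts on JNK and p38, was lowest in WM2664, at 124 to 152, against 467 to 507 in SKMEL5 and 419 to 455 in A375. The difference between the last 2, -0.14 ± 0.05 (adjusted p = 0.046), was 0.06 without scaling and lost its call without any 1 of 9 DMSO arrays, all but both of WM2664 at 6 h and A375 6 h replicate 2. DUSP5, a nuclear phosphatase of ERK alone, was highest in A375 at 403 to 472, with 164 to 179 in WM2664 and 99.6 to 155 in SKMEL5. At the brightest probe set, PHLDA1 and ETV4 varied least between the lines. PHLDA1 had 3801 to 4265 in A375, 3327 to 3727 in WM2664 and 3003 to 3511 in SKMEL5. WM2664 and SKMEL5 overlap for PHLDA1 at that probe set. The call between them ended there without either SKMEL5 6 h array, WM2664 6 h replicate 1 or WM2664 24 h replicate 2 (-0.16 to -0.14). Over the 6 PHLDA1 probe sets, SKMEL5 minus WM2664 ran from -1.13 to -0.11, with 5 called lower. A375 minus SKMEL5 was called higher at all 6 (0.19 to 0.88). The order of A375 and WM2664 for PHLDA1 depended on the probe set (-0.086 for A375 minus WM2664 with the mean of its 6 probe sets, against 0.20 at the brightest). Across the 5 probe sets of ETV5 the A375 minus WM2664 difference ran from -2.50 to -0.71.

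**Figure D1:**
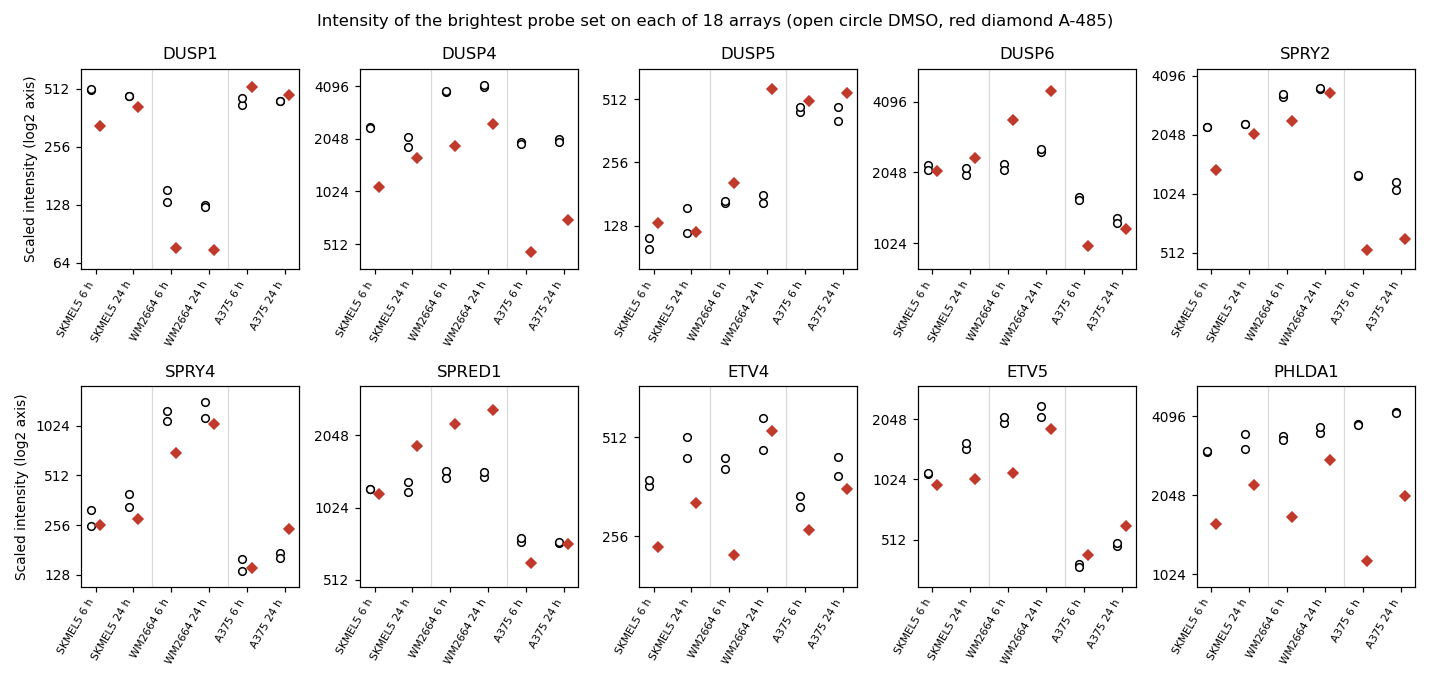
Normalized intensity (log axis) of the brightest probe set of each of the 10 genes on all 18 arrays, by line, time and treatment, with one point per array. The lines separate for SPRY4 and ETV5 under DMSO, and the A-485 point lies below both DMSO points in every line and time for DUSP4, SPRY2 and PHLDA1.

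Time alone was read between 6 h and 24 h of DMSO, averaged over the lines. At an unadjusted p under 0.05, 4 of 10 members were higher and 0 lower at their brightest probe set. Unadjusted counts, here and below, stand without the share of all probe sets passing that threshold. The shares of probe sets called are after adjustment. With adjustment, limma called 2 of 10 higher and 0 lower, against 4.33% and 4.32% of probe sets. These were ETV4 (0.34 ± 0.07, adjusted p = 0.0331), which lost its call without any of 9 DMSO arrays (all but SKMEL5 24 h replicate 1, WM2664 24 h replicate 2 and A375 24 h replicate 1; 0.28 to 0.35), and ETV5 (0.31 ± 0.05, adjusted p = 0.0117). For ETV5 only 1 of 5 probe sets was called (-0.15 to 0.31), and the value was -0.019 (adjusted p = 0.96) without probe sets ending in _x_at or _s_at. Neither call held without scaling or with a floor of 1. Over all 26 tested probe sets of the members, 8 were called higher and 0 lower. They included 4 of the 6 of PHLDA1 (0.004 to 0.41) and 1 of the 3 of DUSP6 (-0.04 to 0.14). Within a line, at the brightest probe sets, limma called only ETV5 in SKMEL5 (0.45 ± 0.08, adjusted p = 0.0236, higher). The shares over all probe sets there were 2.82% higher and 2.98% lower. That call ended without either SKMEL5 6 h array or SKMEL5 24 h replicate 2 (0.39 to 0.46), and the value turned to -0.019 with the mean of its probe sets.

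A-485 lowered part of the group in every line. At 6 h, 5 members fell and 0 rose in SKMEL5, against 7.78% of probe sets called lower and 8.22% called higher. In WM2664 7 fell and 2 rose, against 9.23% and 10.4%, and in A375 4 fell and 0 rose, against 5.21% and 3.38%. At an unadjusted p under 0.05, 0 of 10 were higher in SKMEL5 and 1 in A375. The median difference of the 10 was -0.41, -0.81 and -0.31 on the log2 scale in SKMEL5, WM2664 and A375. That of all genes tested was near 0, where quantile normalization, which gives every array the same distribution, tends to hold it. Taken over the 3 lines, 16 of 30 member comparisons were called lower and 2 higher at 6 h. Over all genes at their brightest probe set, the shares were 8.39% and 9.39%. DUSP4, SPRY2 and PHLDA1 fell in each of the 3 lines at 6 h, 3 of 10 members against 1.53% of probe sets.

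At 24 h the members stood nearer to the background. In SKMEL5 4 fell and 1 rose, against 12.6% and 15.1% of probe sets, in WM2664 3 fell and 3 rose, against 11.7% and 13.5%, and in A375 3 fell and 0 rose, against 6.23% and 6.01% (2 were higher at an unadjusted p under 0.05). Over the 3 lines 10 of 30 member comparisons were lower and 4 higher, against 12.3% and 14% over all genes at their brightest probe set. DUSP4 and PHLDA1 fell in each of the 3 lines, 2 of 10 members against 1.33% of probe sets. Averaged over the lines, which reuses the same arrays, 6 members fell and 0 rose at 6 h (13.6% and 17.1% of probe sets, with 1 higher at an unadjusted p under 0.05), and 5 fell and 3 rose at 24 h (17.4% and 21.4%). Each sample is bulk RNA from a culture of 1 line, in which fewer cells expressing a gene and less of its RNA per cell cannot be told apart.

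The size of the falls depends on the scaling of the arrays. Without it, the median over bright probe sets moved up with A-485 by 0.52 at 6 h and 0.36 at 24 h in WM2664, by 0.38 and 0.02 in SKMEL5 and by 0.10 and 0.02 in A375. No member was then called lower by limma in SKMEL5 or WM2664 at either time; at an unadjusted p under 0.05, 2 were lower at 6 h in each, 3 in SKMEL5 at 24 h and 1 in WM2664 at 24 h. The share of all probe sets called without scaling is not given here. A loss particular to the members is therefore not separated from a general loss of calls. In A375 DUSP4, SPRY2 and PHLDA1 were still called at both times, and the fall of DUSP6 at 6 h was not (-0.66, adjusted p = 0.243). Of the rises, those of DUSP5, DUSP6 and SPRED1 in WM2664 kept their calls, and that of SPRED1 in SKMEL5 at 24 h did not (0.46, adjusted p = 0.26). The unscaled WM2664 rises contain the upward shift of that line, so a kept call does not separate them from it. Relative to the shift of each line, the unscaled 6 h differences in SKMEL5, WM2664 and A375 were -1.22, -1.26 and -2.19 for DUSP4. They were -1.04, -1.16 and -1.81 for PHLDA1, and -0.83, -0.62 and -1.36 for SPRY2.

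Among the phosphatases, DUSP4 fell in all 6 comparisons. In A375 its intensity was 1969 and 1911 in the DMSO arrays at 6 h and 461 with A-485, then 2055 and 1967 against 698 at 24 h. In WM2664 the values were 3818 and 3835 against 1873, then 4036 and 4139 against 2489. In SKMEL5 they were 2396 and 2370.2 against 1087, then 2092 and 1846 against 1602. The A-485 array lay below both DMSO arrays each time, and the gap was narrowest in SKMEL5 at 24 h. The differences at 6 h were -2.07 ± 0.09 in A375, -1.03 ± 0.09 in WM2664 and -1.13 ± 0.09 in SKMEL5 (limma, adjusted p = 9.10e-06, 0.000174 and 0.000154). At 24 h they were -1.53 ± 0.09, -0.72 ± 0.09 and -0.30 ± 0.09 (adjusted p = 2.71e-05, 0.000796 and 0.0372). The last call is weak: it ended without either SKMEL5 DMSO array of 6 h, either WM2664 DMSO array of 6 h, or SKMEL5 DMSO 24 h replicate 1 (-0.20), and another DUSP4 probe set gave 0.07.

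DUSP6 moved in opposite directions in WM2664 and A375. WM2664 had 2228 and 2092 under DMSO and 3410.4 with A-485 at 6 h, then 2514 and 2582 against 4537. A375 had 1607 and 1560.4 against 994 at 6 h, then 1314 and 1243 against 1177. SKMEL5 had 2210.4 and 2106 against 2083, then 1996 and 2148 against 2351. So the A-485 arrays of WM2664 were the highest of all 18 for DUSP6, and that of A375 at 6 h the lowest. By limma the differences were 0.66 ± 0.08 and 0.83 ± 0.08 in WM2664 (adjusted p = 0.00125 and 0.000313) and -0.67 ± 0.08 in A375 at 6 h (adjusted p = 0.00202). The last was not called without scaling between arrays (-0.66, adjusted p = 0.243). The rises in WM2664 were, although the unscaled A-485 arrays of that line had shifted upward in general. The value of -0.12 in A375 at 24 h and both SKMEL5 values, -0.05 and 0.18, were not called. The other 2 DUSP6 probe sets were called lower in A375 at 24 h, at -0.37 and -0.43. The mean over lines at 6 h, -0.02, therefore hides opposite changes: it was 0.30 without the A375 A-485 6 h array and -0.36 without that of WM2664. At 24 h the mean of 0.30 ± 0.05 rested on WM2664 and was 0.03 without its A-485 array.

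DUSP1 fell in WM2664 at both times and in SKMEL5 at 6 h, and not in A375. WM2664 had 132 and 152 against 76.6 at 6 h and 128 and 124 against 74.4 at 24 h. SKMEL5 had 503 and 507 against 327 at 6 h and 467 and 467 against 411 at 24 h, and A375 had 419 and 455 against 520, then 444 and 439 against 475. In A375 the A-485 arrays stood above both DMSO arrays, in the other lines below them. The called differences were -0.89 ± 0.09 and -0.76 ± 0.09 in WM2664 (adjusted p = 0.000592 and 0.00095) and -0.63 ± 0.09 in SKMEL5 at 6 h (adjusted p = 0.0041), while A375 had 0.25 and 0.10 (adjusted p = 0.175 and 0.617). The means over lines, -0.42 at 6 h and -0.28 at 24 h, came to -0.19 and -0.04 and were no longer called without the WM2664 A-485 array of that time.

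DUSP5 rose in 1 comparison. In WM2664 at 24 h it stood at 164 and 179 under DMSO and at 572 with A-485, a difference of 1.74 ± 0.17 (adjusted p = 0.00027), the largest rise of any member. At 6 h the same line had 164 and 167 against 203. SKMEL5 had 99.6 and 112 against 132, then 118 and 155 against 119, and A375 had 444 and 472 against 504, then 403 and 469 against 550. The 6 h arrays with A-485 were above both DMSO arrays in every line, by differences of 0.14 to 0.32 that were not called. The mean over lines at 24 h, 0.63 ± 0.10, was 0.08 without the WM2664 array. DUSP5 was read by 1 probe set.

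Of the Sprouty and SPRED transcripts, SPRY2 fell in each line at 6 h and kept a called fall in A375. A375 had 1268 and 1281 under DMSO against 531 with A-485 at 6 h, and 1076 and 1171 against 601 at 24 h. SKMEL5 had 2248 and 2247 against 1359, then 2331 and 2325 against 2066. WM2664 had 3211 and 3305 against 2422, then 3499.7 and 3569 against 3330.1. All 6 A-485 arrays were below both DMSO arrays. At 6 h the differences were -1.26 ± 0.07 in A375, -0.43 ± 0.07 in WM2664 and -0.73 ± 0.07 in SKMEL5 (adjusted p = 3.62e-05, 0.00518 and 0.000594). At 24 h A375 gave -0.90 ± 0.07 (adjusted p = 0.000177), and SKMEL5 and WM2664 gave -0.17 and -0.09 (adjusted p = 0.123 and 0.481). Without the A375 array the 24 h mean over lines moved from -0.39 to -0.13 and lost its call.

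SPRY4 was called once, lower in WM2664 at 6 h. There it had 1102 and 1252 against 701 with A-485, a difference of -0.74 ± 0.20 (adjusted p = 0.0326). The call ended without either WM2664 DMSO 6 h array (-0.84 and -0.65) or either A375 DMSO 24 h array (-0.74). At 24 h WM2664 had 1418 and 1142 against 1045. SKMEL5 had 254 and 316 against 256, then 330 and 394 against 279, and A375 had 135 and 159 against 141, then 174 and 161 against 241. None of these other 5 differences was called, and the A375 one at 24 h was upward (0.53 ± 0.20, adjusted p = 0.136).

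SPRED1 was called in 3 comparisons, each time higher. WM2664 went from 1455 and 1359.9 to 2284 at 6 h and from 1368 and 1441 to 2615 at 24 h, and SKMEL5 from 1188 and 1305 to 1840.1 at 24 h. SKMEL5 at 6 h had 1226 and 1225 against 1169, and A375 had 736 and 768 against 599, then 726 and 738 against 723. The rises were 0.70 ± 0.08 and 0.90 ± 0.08 in WM2664 (adjusted p = 0.00106 and 0.000242) and 0.56 ± 0.08 in SKMEL5 (adjusted p = 0.00206), and each of these 3 A-485 arrays lay above both DMSO arrays. In A375 the 6 h difference was -0.33 ± 0.08 (adjusted p = 0.0549). At 24 h all 3 probe sets of SPRED1 were called higher in both SKMEL5 (0.51 to 0.68) and WM2664 (0.90 to 1.23).

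The ETS factors changed less evenly. ETV4 fell in WM2664 at 6 h, from 409 and 444 to 225, and in SKMEL5 at both times, from 363 and 380 to 237 and from 444 and 513 to 324. WM2664 at 24 h had 584 and 469 against 536, and A375 had 315 and 340 against 267, then 390 and 445 against 357. The A-485 array was below both DMSO arrays in each line and time except WM2664 at 24 h, where it lay between them. The called differences were -0.92 ± 0.15 in WM2664 (adjusted p = 0.00495), and -0.65 ± 0.15 and -0.56 ± 0.15 in SKMEL5 (adjusted p = 0.026 and 0.0306). Those of SKMEL5 ended without either of its own DMSO arrays at 6 h (-0.68 and -0.62), and without DMSO replicate 2 at 24 h (-0.45). A375 gave -0.29 and -0.22 (adjusted p = 0.352 and 0.466), although its second ETV4 probe set was called at 24 h, at -0.54.

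ETV5 fell in WM2664 at 6 h and in SKMEL5 at 24 h. WM2664 had 1952 and 2105 against 1099 at 6 h and 2385 and 2092 against 1825 at 24 h. SKMEL5 had 1094 and 1107 against 957, then 1445 and 1559 against 1028. A375 had 385 and 372 against 427, then 476 and 494 against 601, above both DMSO arrays each time. The called differences were -0.88 ± 0.10 (adjusted p = 0.000743) and -0.55 ± 0.10 (adjusted p = 0.00501); A375 gave 0.18 and 0.31 (adjusted p = 0.399 and 0.0901). In each called comparison 2 of the 5 ETV5 probe sets were called, with ranges of -0.99 to -0.40 in WM2664 at 6 h and of -0.68 to 0.51 in SKMEL5 at 24 h. Without probe sets ending in _x_at or _s_at both calls were lost (-0.59, adjusted p = 0.297, and -0.38, adjusted p = 0.502), and with the mean of the probe sets that of SKMEL5 was (-0.35, adjusted p = 0.0684). The mean over lines at 6 h, -0.30, was -0.01 without the WM2664 A-485 array, and that at 24 h, -0.18, was 0.01 without that of SKMEL5. The 24 h mean also lost its call without the WM2664 A-485 array (-0.12) or without 1 of 8 DMSO arrays: either of SKMEL5 at 6 h, either of A375 at 6 h or 24 h, SKMEL5 24 h replicate 2 or WM2664 24 h replicate 1. The 4 dimmer ETV5 probe sets spread widely, from -0.01 to 0.87 in A375 at 6 h, with none of them called there.

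PHLDA1 fell in all 6 comparisons, as DUSP4 did. A375 had 3850.3 and 3801 under DMSO against 1148 with A-485 at 6 h, then 4265 and 4237 against 2030.0. SKMEL5 had 3003 and 3015 against 1599, then 3087 and 3511 against 2249.6. WM2664 had 3447 and 3327 against 1690.5, then 3549 and 3727 against 2789.6. Every A-485 array was below both DMSO arrays. At 6 h the differences were -1.74 ± 0.09, -0.91 ± 0.09 and -1.0 ± 0.09 in A375, SKMEL5 and WM2664 (adjusted p = 1.98e-05, 0.000484 and 0.000219), and at 24 h -1.07 ± 0.09, -0.55 ± 0.09 and -0.38 ± 0.09 (adjusted p = 0.000193, 0.00273 and 0.0151). The call in WM2664 at 24 h ended without WM2664 DMSO 24 h replicate 2 (-0.35), 1 of the 3 arrays with transcripts of another line.

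The A-485 array lay below both DMSO arrays for 8, 7 and 6 of the 10 members at 6 h in SKMEL5, WM2664 and A375, against 30.3%, 30.4% and 27% of probe sets. It lay above both for 1, 3 and 3, against 40%, 40.4% and 40.5%. At 24 h it was below for 7, 6 and 6 (30.7%, 31.3% and 28.8%) and above for 2, 3 and 4 (40%, 40.2% and 40.4%). Below-both positions were more frequent among the members than over the array in each line, and above-both positions were not.

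Leaving out together the 3 DMSO arrays with another line's transcripts (the carry-over arrays), 5 of the calls above were lost, each with its direction kept. They were DUSP4 in SKMEL5 at 24 h (-0.30, adjusted p = 0.102), PHLDA1 in WM2664 at 24 h (-0.35, adjusted p = 0.101), SPRY4 in WM2664 at 6 h (-0.84, adjusted p = 0.0886) and ETV4 in SKMEL5 at 6 h and 24 h (-0.65 and -0.56, adjusted p = 0.0631 and 0.0594). Calls of DUSP1 in SKMEL5 at 24 h (-0.19, adjusted p = 0.0267) and of ETV5 in WM2664 at 24 h (-0.39, adjusted p = 0.0381) were gained. The cause was not tested; fewer arrays also leave fewer residual degrees of freedom.

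**Figure D2:**
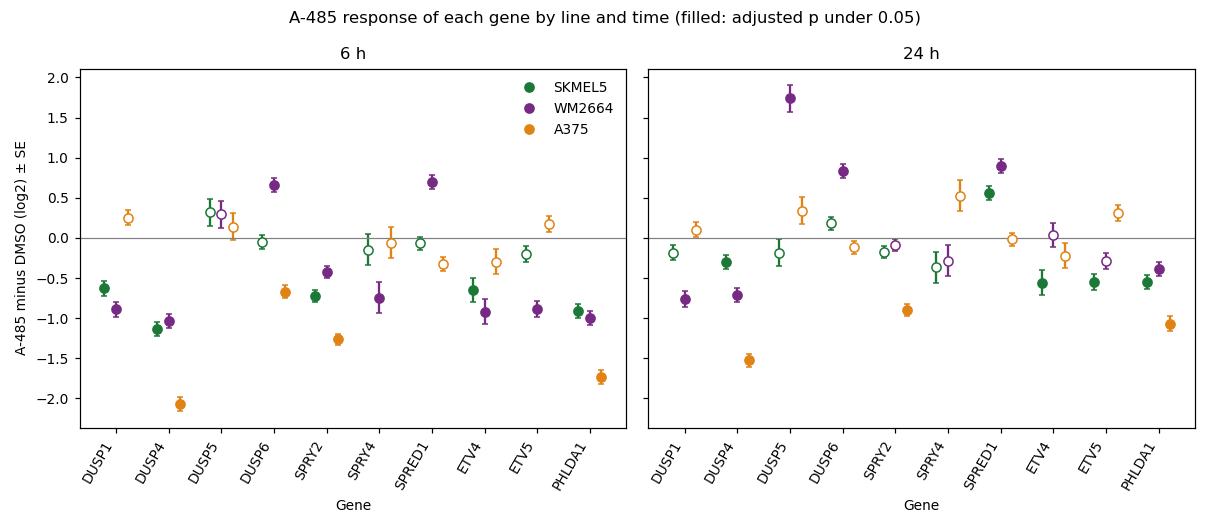
A-485 minus DMSO (log2) of the 10 genes at 6 h and 24 h in each line, with bars of ± SE from limma. Filled points passed an adjusted p of 0.05. DUSP4 and PHLDA1 are filled below 0 in every line at both times, DUSP6 lies above 0 in WM2664 and below it in A375 at 6 h, and DUSP5 stands at 1.74 in WM2664 at 24 h.

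Genes with several probe sets allow a check of these falls within the same RNA, though not an independent one, since the probe sets share their arrays. All 3 DUSP4 and all 6 PHLDA1 probe sets were called lower in each line at 6 h. Their A375 differences ran from -2.62 to -2.07 for DUSP4 and from -2.62 to -1.74 for PHLDA1. All 3 DUSP6 probe sets were called higher in WM2664 at 6 h (0.66 to 0.84) and lower in A375 (-0.67 to -0.30). Of the 26 probe sets, 13, 16 and 13 were called lower and 0, 5 and 0 higher at 6 h in SKMEL5, WM2664 and A375, against 7.78%, 9.23% and 5.21% lower and 8.22%, 10.4% and 3.38% higher over all probe sets. At 24 h 11, 8 and 13 were lower and 4, 7 and 0 higher, against 12.6%, 11.7% and 6.23% lower and 15.1%, 13.5% and 6.01% higher, so that in WM2664 at 24 h the members' probe sets were nearly evenly split.

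**Figure D3:**
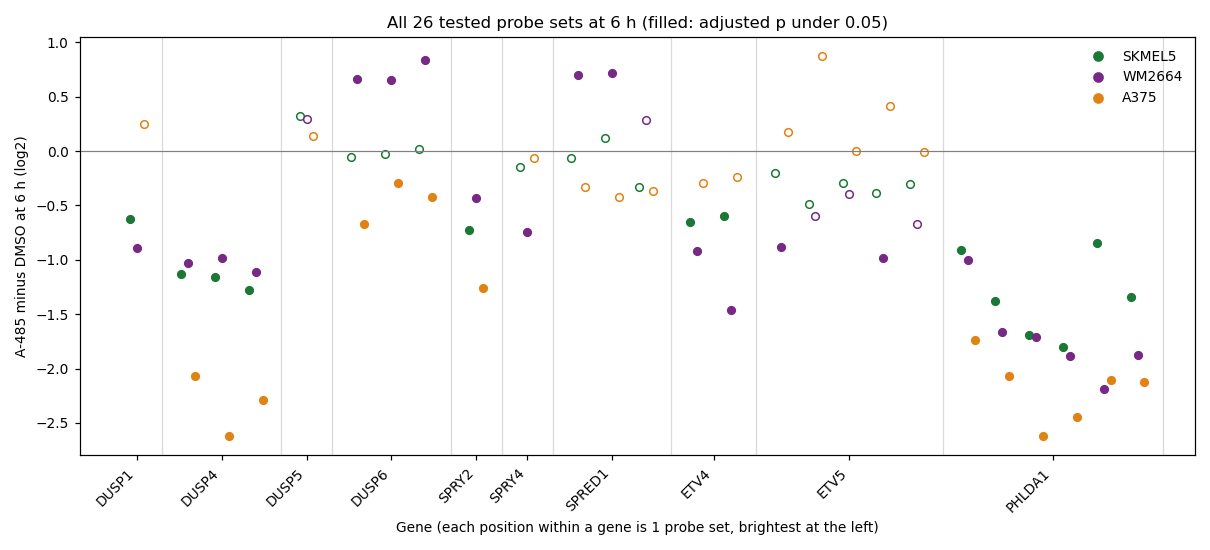
A-485 minus DMSO at 6 h (log2) of all 26 tested probe sets of the members, by line, the brightest probe set at the left of each gene. Within WM2664 and within A375, the probe sets of each of DUSP4, DUSP6 and PHLDA1 share a side of 0. Those of DUSP4 and PHLDA1 lie below 0 in both lines, and those of DUSP6 above it in WM2664 and below it in A375. The 5 of ETV5 lie on both sides in A375.

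A375 responded differently from the mean of the other lines in 7 of the 10 genes at 6 h, 2 higher and 5 lower, against 7.91% of probe sets called in either direction (4.12% higher and 3.8% lower). At 24 h it was 8 of 10, 3 higher and 5 lower, against 17.2% (9.19% and 8.01%). The difference of differences for DUSP4 was -0.99 ± 0.11 at 6 h and -1.02 ± 0.11 at 24 h (limma, adjusted p = 0.00123 and 0.000512), a deeper fall in A375. SPRY2 gave -0.69 ± 0.09 and -0.77 ± 0.09, and PHLDA1 -0.78 ± 0.11 and -0.60 ± 0.11, also deeper falls in A375. DUSP6 (-0.98 and -0.63) and SPRED1 (-0.64 and -0.75) were also lower, with rises called in WM2664 and none in A375. DUSP1 (1.01 and 0.58) and ETV5 (0.72 and 0.73) were higher, with falls called in the other lines and not in A375. SPRY4 was called at 24 h alone, at 0.85 ± 0.24 (adjusted p = 0.0463), and that call ended without any 1 of 8 DMSO arrays (0.78 to 0.91): both of WM2664 and of A375 at 6 h, both of A375 at 24 h, WM2664 24 h replicate 1 and SKMEL5 24 h replicate 2. Without the 3 carry-over arrays, SPRY4 (0.93, adjusted p = 0.085) and PHLDA1 at 6 h (-0.78, adjusted p = 0.0502) were not called. Without scaling between arrays none of these calls remained, with DUSP4 at -1.31 at 6 h (adjusted p = 0.0883). With a floor of 1 in place of 32, 10 of the 15 calls were lost: DUSP4 kept both, DUSP1 and DUSP6 that of 6 h and SPRY2 that of 24 h.

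SKMEL5 and WM2664 differed from each other in 3 of 10 members at each time, against 3.49% of probe sets at 6 h (1.65% lower, 1.83% higher) and 9.59% at 24 h (4.85% lower, 4.74% higher). The response was lower in SKMEL5 for DUSP6 at both times (-0.71 ± 0.12 and -0.65 ± 0.12), for SPRED1 at 6 h (-0.77 ± 0.12) and for DUSP5 at 24 h (-1.92 ± 0.24), and higher for ETV5 at 6 h (0.68 ± 0.14) and DUSP1 at 24 h (0.58 ± 0.13). The ETV5 call ended without any 1 of the 6 DMSO arrays of 6 h or either A375 24 h array (0.63 to 0.74). The DUSP1 call ended without either SKMEL5 array of 6 h or any 1 of the 6 DMSO arrays of 24 h (0.56 to 0.60). Without the 3 carry-over arrays DUSP6 (-0.76 and -0.67, adjusted p = 0.0565 and 0.0503) and DUSP5 (-1.99, adjusted p = 0.0501) were just outside the threshold, and DUSP1 at 6 h was called (0.37, adjusted p = 0.0418). Without scaling, and again with a floor of 1, 5 of the 6 calls were lost, all but that of DUSP5. ETV5 was also 0.37 with the mean of its probe sets and 0.11 without those ending in _x_at or _s_at (adjusted p = 0.36 and 1.00). For DUSP4 at 6 h the difference was -0.10, with a 95% interval of -0.38 to 0.18.

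From 6 h to 24 h the response of 5 members moved upward and of 0 downward in the mean over lines, against 6.18% and 6.61% of probe sets (limma; 7 upward and 0 downward at an unadjusted p under 0.05). DUSP4 recovered by 0.57 ± 0.07 (adjusted p = 0.00224), PHLDA1 by 0.55 ± 0.07 (adjusted p = 0.00269) and SPRY2 by 0.42 ± 0.06 (adjusted p = 0.00386), so their falls were shallower at 24 h. SPRED1 (0.38 ± 0.07) and DUSP6 (0.32 ± 0.07) moved up as well. Within lines, 3 members were called upward in SKMEL5 (3.78% of probe sets), namely DUSP4, SPRED1 and SPRY2. In WM2664 3 were (3.01%), namely DUSP5, ETV4 and PHLDA1, and in A375 1 was (0.969%), PHLDA1 at 0.67 ± 0.12 (adjusted p = 0.0405). By limma 0 were called downward in any line, against 4.41%, 3.05% and 0.962% of probe sets; at an unadjusted p under 0.05, 1 was downward in SKMEL5 and 0 in the other lines. The A375 call ended without any 1 of 10 DMSO arrays (0.66 to 0.68), all but both of SKMEL5 at 24 h. In WM2664 ETV4 lost its call without any DMSO array of 6 h, either A375 array of 24 h or WM2664 24 h replicate 2 (0.80 to 1.02), and PHLDA1 without either WM2664 array of 6 h or WM2664 24 h replicate 1 (0.58 to 0.65). Without scaling the 5 mean changes ran from 0.14 to 0.39, and none was called, nor was any of the 7 changes within lines. With a floor of 1 the means of DUSP4 and PHLDA1 alone kept their calls.

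The rest of the pathway was read from 3 lists of genes. Of 26 tested genes of the core cascade, from receptors to ERK and its scaffolds, 6 rose and 2 fell at 6 h. At 24 h 9 rose and 3 fell, both in the mean over lines. Over all probe sets 17.1% rose and 13.6% fell at 6 h, and 21.4% and 17.4% at 24 h. The lists are counted at the brightest probe set of a gene. Of all 13341 genes tested in that way, 2773 rose and 1982 fell at 6 h, and 3307 and 2756 at 24 h. The list's median was 0.09 at 6 h. ERBB3, a receptor of the EGFR family, fell by 2.50 ± 0.06 (adjusted p = 4.59e-07). The exchange factor SOS1 rose by 0.55 ± 0.08 (adjusted p = 0.0013), the MEK scaffold LAMTOR3 by 0.44 ± 0.05 (adjusted p = 0.000338) and the RAF activator SHOC2 by 0.43 ± 0.05 (adjusted p = 0.000643).

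Of 27 tested relatives of the members, other phosphatases, Sprouty, SPRED and ETS genes among them, 2 rose and 14 fell at 6 h, and 4 rose and 11 fell at 24 h, with a median of -0.39 at 6 h. Over all probe sets 17.1% rose and 13.6% fell at 6 h, and 21.4% and 17.4% at 24 h. The ETS factor ETS1 stood at -1.71 ± 0.05 (adjusted p = 6.23e-07) and was called lower in every line at both times, with -0.97 in A375 at 6 h against -2.33 in WM2664. DUSP10, a phosphatase of JNK and p38, was at -1.57 ± 0.08 (adjusted p = 1.26e-05), SPRY1 at -1.35 ± 0.14 (adjusted p = 0.000251) and ERF, an ETS repressor held in check by ERK, at -1.12 ± 0.08 (adjusted p = 5.91e-05). DUSP10 fell less in A375 (-0.81) than in SKMEL5 (-1.68) or WM2664 (-2.21) at 6 h, where DUSP4 fell most in A375.

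Of 22 other transcripts linked to ERK, 5 rose and 10 fell at 6 h, with a median of -0.29. At 24 h 9 rose and 8 fell. The shares over all probe sets were again 17.1% and 13.6%, then 21.4% and 17.4%. MYC fell by 3.44 ± 0.05 (adjusted p = 1.61e-07) and the chromatin protein HMGA2 by 1.57 ± 0.07 (adjusted p = 3.76e-06). The immediate early factors EGR1 and FOS rose by 2.55 ± 0.08 (adjusted p = 7.69e-07) and 1.57 ± 0.11 (adjusted p = 4.51e-05). The listed transcripts thus moved both ways on the same arrays. The list, which also holds BCL2L11 and BMF, was not sorted by whether ERK raises or lowers a gene. ERK activity was not tested.

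**Figure D4:**
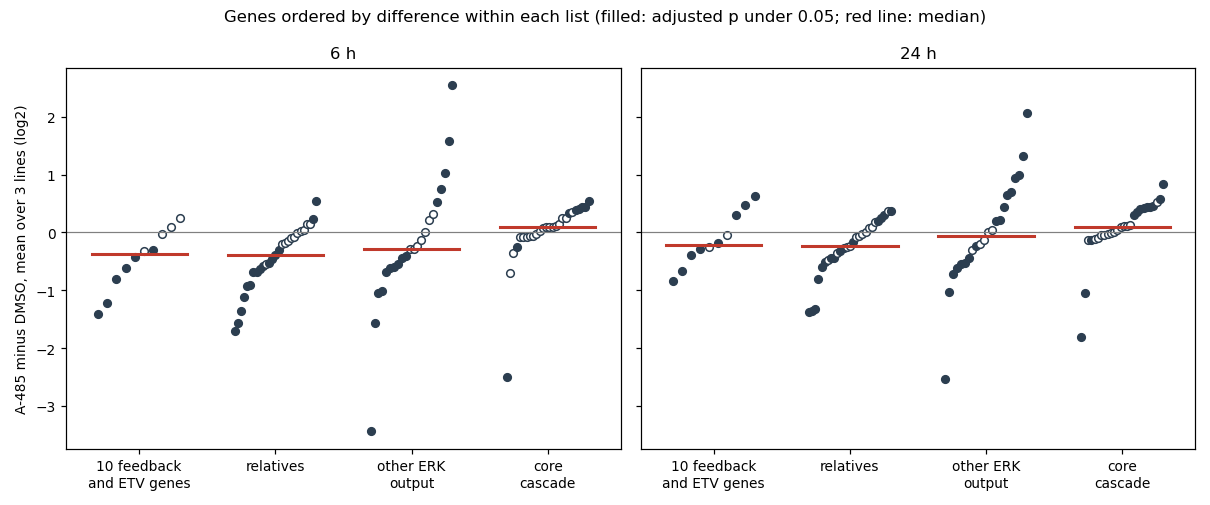
A-485 minus DMSO (log2), mean over the 3 lines at 6 h and 24 h, of each tested gene in the members and in the 3 lists of other pathway genes; filled points were called and bars mark medians. At 6 h the medians are -0.37 for the members, -0.39 for their relatives, -0.29 for the other output genes and 0.09 for the core cascade.

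By likeness over the 12 group means, the gene nearest to DUSP4 among 9450 was IGF2BP3 (Pearson r = 0.931), to PHLDA1 KLF6 (0.913), to SPRY2 ITGB8 (0.980), to SPRY4 RDX (0.982) and to SPRED1 DUSP19 (0.966). For DUSP1 it was FRAT2 (0.977), for DUSP5 GSTT1 (0.975), for DUSP6 NDUFB3 (0.940), for ETV4 CLCN6 (0.905) and for ETV5 PPP1R3C (0.981). These correlations describe 12 means that share lines and arrays.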

How the data were processed

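Per the labels, total RNA was purified with Qiazol and RNeasy and biotinylated cRNA was hybridised to 1-colour Affymetrix arrays. The authors deposited 1 linear intensity per probe set and array; its software, background correction and scaling: not given in the sources used here. Of the deposited intensities, 19.3% to 22.9% of an array were below 0, and array medians ran from 19.5 to 29.0. Symbols came from the platform annotation, updated by Entrez identifier for 41037 of 41091 probe sets with 1 symbol.

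The intensities were quantile normalized, floored at 32 and taken to log2. The 30355 probe sets above the floor on at least 3 of 18 arrays were fitted with limma 3.58.1 (R 4.3.3), a mean per group for 12 groups with 6 residual degrees of freedom, and p-values were Benjamini-Hochberg adjusted within each contrast; "called" means an adjusted p under 0.05. Errors are SE unless said. The code was tested on simulated data. The number of arrays limits the precision: the median SE was 0.16 for a line and time. Named genes were the members, up to 4 called genes per list by size in the 6 h mean, and the gene most like each member. Members, lists and tests were chosen with earlier results of these data known. Alternatives covered scaling, floor, filter, probe set choice, fit and each array left out. Leaving out 3 DMSO arrays together was added after seeing the data.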

Additional observations from a re-analysis of the deposited data

Results flagged for a closer look

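The A-485 response of A375 differed from the mean of SKMEL5 and WM2664, by a limma test of the difference itself at an adjusted p under 0.05, in 7 members at 6 h and 8 at 24 h. On the log2 scale the differences at 6 h and 24 h were 1.01 and 0.58 for DUSP1, 0.72 and 0.73 for ETV5, -0.99 and -1.02 for DUSP4, -0.98 and -0.63 for DUSP6, -0.69 and -0.77 for SPRY2, -0.78 and -0.60 for PHLDA1, and -0.64 and -0.75 for SPRED1. For SPRY4 the difference was 0.85 at 24 h. None of the 15 calls held without scaling between arrays, and 10 were lost with a floor of 1.

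Between SKMEL5 and WM2664 the same test passed in 3 members at each time. At 6 h the differences were 0.68 for ETV5, -0.71 for DUSP6 and -0.77 for SPRED1. At 24 h they were 0.58 for DUSP1, -0.65 for DUSP6 and -1.92 for DUSP5. Of these 6 calls, 5 were lost without scaling and 5 with a floor of 1, DUSP5 being the exception in both. ETV5 fell short of a call with the mean of its probe sets as well (0.37, adjusted p = 0.36). No explanation was tested for any of these.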

How the results depend on the processing

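The 80 A-485 minus DMSO results for single members were set against 36 alternatives, 18 of which left out 1 array. Of these values, 2561 kept their side of the threshold, 145 lost a call and 34 gained one. Another 4 changed sign with a call in the main or the alternative setting. A change of sign between uncalled values was counted among those that kept their side. The counts of members called under an alternative stand without the share of all probe sets called there. They do not separate the members from the array in general. Of 70 DMSO results these counts were 2241, 94, 16 and 15. They were 1173, 110, 9 and 0 for 40 differences in response between lines, and 1122, 78, 32 and 0 for 40 between times. Without scaling between arrays, 0 members were called lower in SKMEL5 or WM2664 at either time and 0 higher in SKMEL5 at 24 h; in the means 3 were lower and 1 higher at 6 h and 2 lower at 24 h. For unscaled deposited intensities floored at 1, 2 were lower in A375 at 6 h, 2 lower in the 6 h mean, 1 higher in WM2664 at 24 h, and 0 in every other count that moved. In both settings DMSO differences changed sign: A375 minus SKMEL5 to 0.061 for DUSP1 and 0.099 for DUSP4, and SKMEL5 minus WM2664 to 0.046 for DUSP6, 0.0038 for SPRED1 and 0.050 for PHLDA1. A floor of 1 alone left 3 lower in SKMEL5 at 6 h, 1 at 24 h, and 3 in the 24 h mean. With the mean of a gene's probe sets, SKMEL5 at 24 h had 2 lower and 2 higher, PHLDA1 under DMSO was -0.086 for A375 minus WM2664, and ETV5 from 6 h to 24 h of DMSO in SKMEL5 was -0.019.

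Without probe sets ending in _x_at or _s_at, 4 were lower in WM2664 at 6 h, 1 at 24 h, 3 in the 24 h mean, and 2 lower and 2 higher in SKMEL5 at 24 h; DUSP1 and SPRY4 have no such probe set. There DUSP4 was 0.067 in SKMEL5 at 24 h and 0.15 for DMSO A375 minus SKMEL5, and ETV5 was 0.0022 in the 24 h mean, and -0.41 in SKMEL5 and -0.019 in the mean for DMSO with time. The arrays of one time alone gave 1 higher in the 6 h mean and 2 lower in SKMEL5 at 24 h, and the additive fit gave 1 higher at 6 h, 2 lower and 0 higher at 24 h in the means.

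Replicate numbers did not pair the samples: the correlation of the DMSO pairs' deviations ran from -0.049 to 0.041 over 15 pairs of groups. With a replicate block, 1 member was called higher in the 6 h mean (DUSP5, 0.34), against 0. Leaving out each array in turn, the 6 h mean had 0 to 2 members called higher and the 24 h mean 1 to 3; DUSP6 in the 6 h mean ran from -0.36 to 0.30, and ETV5 in the 24 h mean from -0.42 to 0.0088. The causes were not tested. Differences of a single line and time below about 0.3 were seldom called, so such values do not show that a member was unchanged.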
